A study of Mus musculus with 8 samples.

Results

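The 7 genes described here are the globin genes of the mouse alpha cluster (Hba-x, Hba-a1 and Hba-a2) and beta cluster (Hbb-y, Hbb-bh1, Hbb-bt and Hbb-bs), found by their symbols among the 53465 genes of a count table. Polyadenylated RNA of heart ventricles at embryonic day 9.5 was sequenced in single reads of 60 bases in 4 wild-type samples (WT_1 to WT_4) and 4 samples of the genotype Nrg-1flox;Tie2-Cre (KO_1 to KO_4). Nrg1 encodes a ligand of ErbB receptors that the endocardium sends to the muscle, and Tie2-Cre recombines floxed alleles in the endothelial lineage, which includes the endocardium and, in many lines, blood cells. The labels do not say whether a sample is 1 embryo or a pool, nor give the strain, the Nrg1 alleles or the Cre status of the controls, so p-values measure the spread between these samples only. The question asked here is how the embryonic and the adult-type globin transcripts differed between the genotypes, and whether the balance between alpha and beta globin moved with them.

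Hemoglobin carries oxygen as a tetramer of alpha-type and beta-type chains, each holding a heme. The first red cells of the mouse embryo arise in the yolk sac, enter the heart with the circulation as nucleated cells, and make mainly embryonic chains: zeta globin from Hba-x, epsilon-y globin from Hbb-y and beta-h1 globin from Hbb-bh1. The adult alpha chain comes from 2 copies, Hba-a1 and Hba-a2, which are active from early on beside Hba-x, whereas the adult beta chain, from Hbb-bt and Hbb-bs, becomes abundant later in red cells of the liver and the marrow. Globin RNA in a ventricle sample therefore marks red cells in the chamber or the wall. In bulk RNA, more red cells and more globin RNA per red cell cannot be told apart.

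All 7 are protein-coding genes of 3 exons. In the GENCODE M21 annotation of the genome build GRCm38, the alpha-type genes lie on the plus strand of chromosome 11, with Hba-x at chr11:32276400-32278116, Hba-a1 at chr11:32283511-32284465 and Hba-a2 at chr11:32296489-32297298. The beta-type genes lie on the minus strand of chromosome 7, with Hbb-y at chr7:103851749-103853216, Hbb-bh1 at chr7:103841637-103843164, Hbb-bs at chr7:103826534-103828096 and Hbb-bt at chr7:103812524-103813996. The first 45 coding bases, from the start codon, are shown because they tell the embryonic genes from the adult-type ones. Capitals mark bases that differ from Hba-x in the alpha-type genes and from Hbb-y in the beta-type genes.
Hba-x: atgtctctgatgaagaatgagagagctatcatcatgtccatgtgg
Hba-a1: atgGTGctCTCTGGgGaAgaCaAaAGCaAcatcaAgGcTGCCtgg
Hba-a2: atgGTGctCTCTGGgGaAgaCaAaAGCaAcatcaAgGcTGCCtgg
Hbb-y: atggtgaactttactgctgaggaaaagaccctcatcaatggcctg
Hbb-bh1: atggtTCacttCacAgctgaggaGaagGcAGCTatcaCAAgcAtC
Hbb-bt: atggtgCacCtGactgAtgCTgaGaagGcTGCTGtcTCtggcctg
Hbb-bs: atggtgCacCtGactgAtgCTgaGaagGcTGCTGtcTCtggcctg

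Over the whole coding sequence, Hba-x was identical to Hba-a1 at 61.7% of 426 positions, and Hbb-y was identical to Hbb-bh1 at 76.4% and to Hbb-bs at 74.4% of 441 positions. None of the 60-base windows of the annotated transcripts of Hba-x, Hbb-y and Hbb-bh1 occurred in a transcript of another gene. The adult-type genes come as near-identical pairs. The coding sequences of Hba-a1 and Hba-a2 differ by 1 base, C381T, and those of Hbb-bt and Hbb-bs by 1 base, T417C, where positions are counted from the first base of the start codon and the first-named gene is the reference. These bases are shown in capitals within the 41 coding bases around them.
Hba-a1: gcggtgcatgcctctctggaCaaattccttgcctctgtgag
Hba-a2: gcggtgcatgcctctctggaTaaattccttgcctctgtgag
Hbb-bt: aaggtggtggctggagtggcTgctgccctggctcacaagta
Hbb-bs: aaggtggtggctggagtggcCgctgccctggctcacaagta

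Of the 60-base windows of Hba-a2, 84.6% also lay in Hba-a1, and of those of Hba-a1, 65.5% lay in Hba-a2. For Hbb-bs the share found in Hbb-bt was 65.2%, and for Hbb-bt the share found in Hbb-bs was 57.6%. Reads from such windows match both copies, and the deposited counts divide them by estimate. Values of a single adult-type gene are thus uncertain in their split, and sums over a pair are given beside them.

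Promoter bases are shown because these genes rose together. The RefSeq promoter table (GRCm38.p6) held 6 of the 7 genes, without Hbb-bh1. Each stretch is the 130 bases that end just before the RefSeq start, written along the gene's own strand. The RefSeq starts lie inside the GENCODE bounds given above, so the stretches of Hba-x, Hba-a1 and Hbb-bs fall wholly, and those of Hba-a2, Hbb-y and Hbb-bt partly, within those bounds. Capitals mark exact matches, on either strand, to short motifs of known kinds. These were the letters CCAAT for the box of that name, likewise CACCC, the letters ATATAA and also CATAAA as forms of the TATA box, and the letters TGATAA and also AGATAA as forms of the site of GATA factors.
Hba-x, chr11:32276470-32276599: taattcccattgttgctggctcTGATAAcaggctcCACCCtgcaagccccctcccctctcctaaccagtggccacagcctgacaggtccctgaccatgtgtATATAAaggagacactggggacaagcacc
Hba-a1, chr11:32283542-32283671: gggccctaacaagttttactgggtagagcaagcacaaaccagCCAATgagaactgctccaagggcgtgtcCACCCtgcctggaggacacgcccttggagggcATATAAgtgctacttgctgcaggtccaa
Hba-a2, chr11:32296362-32296491: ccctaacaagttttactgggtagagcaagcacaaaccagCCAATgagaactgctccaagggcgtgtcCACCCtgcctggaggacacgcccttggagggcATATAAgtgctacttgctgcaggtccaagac
Hbb-y, chr7:103853208-103853337: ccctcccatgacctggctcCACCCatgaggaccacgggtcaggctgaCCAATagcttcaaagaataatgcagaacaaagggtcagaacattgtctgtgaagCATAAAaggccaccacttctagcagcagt
Hbb-bt, chr7:103813924-103814053: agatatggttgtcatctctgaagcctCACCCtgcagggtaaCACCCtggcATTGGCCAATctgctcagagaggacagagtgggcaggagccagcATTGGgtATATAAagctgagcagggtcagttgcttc
Hbb-bs, chr7:103827929-103828058: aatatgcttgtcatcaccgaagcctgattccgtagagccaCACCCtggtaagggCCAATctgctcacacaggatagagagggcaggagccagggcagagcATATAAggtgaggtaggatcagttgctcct

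Matches were counted over the 250 bases before the start on both strands, a window that reaches beyond the printed stretch, and set beside the same window of 32817 promoters. CACCC was found in all 6 genes, and in 52.0% of all promoters. CCAAT was found in 5 genes, not in Hba-x, and in 33.8% of all promoters. ATATAA was found in 5, and Hbb-y held CATAAA in its place, starting 29 bases before the start of the gene. Among all promoters the shares were 9.1% for ATATAA and 10.8% for CATAAA. A form of the GATA site, TGATAA, was found in 4 genes, in the printed stretch of Hba-x and further upstream in Hba-a1, Hba-a2 and Hbb-y, and in 7.95% of all promoters. AGATAA was found upstream of the printed stretch of Hbb-bs, and in 9.99% of all promoters. The 247 bases that could be aligned upstream of Hba-a1 and Hba-a2 were identical, with the annotated start of Hba-a2 set 3 bases further on. These matches describe the letters and no binding was measured.

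Total counts ranged from 11852372 to 14360323 in WT and from 12430368 to 14223860 in KO, so that each of the 7 globins rested on at least 219 expected counts in each sample. Levels are given as CPM, the counts scaled to a common library total, after TMM normalisation, and differences as log2 fold changes with their standard error (SE), KO against WT, from edgeR's quasi-likelihood test. Of 14451 genes tested, 8.62% passed an adjusted p of 0.05, with 5.11% (739 genes) higher and 3.5% (506 genes) lower in KO. Scaling by total counts alone gave 562 higher and 1041 lower with a median of -0.08 over all genes. The deleted gene Nrg1 differed by -1.07 on the log2 scale (SE 0.14, adjusted p = 0.00268). KO_1 stood apart from the other KO samples, since its counts differed from each of theirs by a chi-square of 30.5 or more per degree of freedom, where no other pair within a genotype exceeded 14.5. Cardiomyocyte genes were abundant in both groups, with summed levels from 34769 to 37348 CPM in KO and from 36760 to 38559 CPM in WT, which fits the labelled tissue.

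The 3 embryonic globin transcripts were higher in every KO sample than in any WT sample. For Hbb-y, the most abundant globin in all 8 samples, expected counts were 31828, 37740, 29612 and 31461 in WT_1 to WT_4, and 280655, 80587, 158217 and 143743 in KO_1 to KO_4. After normalisation this was 2431, 2704, 2434 and 2127 CPM in WT against 23796, 5835, 11380 and 11848 CPM in KO. The WT samples lay close together, KO_2 was the lowest and KO_1 the highest of the KO samples, and the groups did not overlap. Hbb-y rose by a log2 fold change of 2.45 (SE 0.35, adjusted p = 0.00341 by edgeR with the Benjamini-Hochberg method).

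Hbb-bh1, the other embryonic beta-type gene, had levels of 1435, 1692, 1723 and 1522 CPM in WT and of 14514, 4382, 8311 and 8766 CPM in KO. The order of the KO samples was that seen for Hbb-y, and the lowest KO value was 2.54 times the highest WT value. Hbb-bh1 rose by 2.50 (SE 0.29, adjusted p = 0.00185, edgeR). Hba-x, which encodes the embryonic alpha-type chain, was at 1329, 1801, 1574 and 1500 CPM in WT and at 14535, 4751, 10326 and 10539 CPM in KO. Again KO_1 was the highest and KO_2 the lowest, with no overlap between the genotypes. Its log2 fold change was 2.69 (SE 0.28, adjusted p = 0.00161, edgeR).

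The adult alpha genes were expressed in both genotypes and rose with the embryonic ones. Hba-a1 levels were 672.8, 797.7, 773.2 and 668.7 CPM in WT and 7180, 1783, 3856 and 3847 CPM in KO. Hba-a2 levels were 624.9, 782.8, 658.0 and 633.5 CPM in WT and 6575, 2325, 4831 and 4652 CPM in KO. Neither gene overlapped between the genotypes. The log2 fold change was 2.52 (SE 0.34, adjusted p = 0.00282) for Hba-a1 and 2.77 (SE 0.26, adjusted p = 0.00125) for Hba-a2 in edgeR's quasi-likelihood test. With the counts of both copies summed before the fit, which needs no split of shared reads, the rise was 2.64 (SE 0.30, adjusted p = 0.00174, edgeR).

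The adult beta genes were the scarcest of the 7 and moved less evenly. Hbb-bs levels were 34.52, 41.69, 31.89 and 40.22 CPM in WT and 149.8, 86.52, 94.44 and 87.62 CPM in KO. KO_1 lay above the other KO samples, which lay close together, and all 4 exceeded the WT samples. Hbb-bs rose by 1.49 (SE 0.18, adjusted p = 0.00188, edgeR), the smallest change of the 7 genes. For Hbb-bt, levels were 50.56, 50.86, 18.00 and 20.41 CPM in WT and 344.6, 61.76, 79.62 and 157.5 CPM in KO. The WT samples fell into a higher and a lower pair, and KO_2 lay only 1.21 times above the highest WT sample. The log2 fold change of Hbb-bt was 2.20 (SE 0.56, adjusted p = 0.0397, edgeR). This call was lost in 5 of the 8 fits that each left out 1 sample, namely KO_4 (adjusted p = 0.0818), WT_1 (0.0825), WT_2 (0.0731), WT_3 (0.113) and WT_4 (0.12), and with limma-voom (0.0602). Without KO_1 the log2 fold change was 1.50 and the call held (adjusted p = 0.0277, edgeR). Summed over the near-identical pair, Hbb-bt and Hbb-bs rose by 1.88 (SE 0.37, adjusted p = 0.0139, edgeR).

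**Figure D1:**
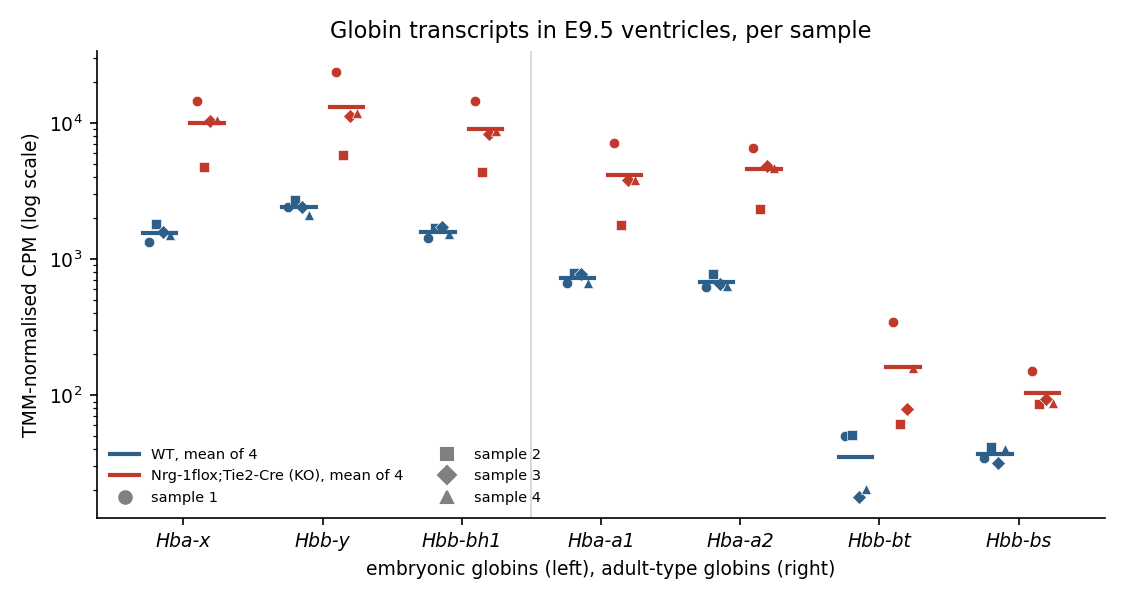
TMM-normalised CPM of the 7 globin transcripts (log axis) in each WT (blue) and KO (red) sample, with horizontal bars at the mean of 4 samples. The marker shape gives the sample number, by which the labels state no pairing between genotypes. For every gene the 4 KO samples lie above the 4 WT samples, with KO_1 highest, and the gap is narrowest for Hbb-bt.

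All 7 globins thus passed the test in the higher direction, where 5.11% of all genes did, and all 7 had every KO sample above every WT sample, where 9.52% of all genes did. Their median log2 fold change was 2.50, beside a median over all tested genes of -0.0014. Leaving out 1 sample at a time ended no call of the 6 genes other than Hbb-bt. Without KO_1 the log2 fold change was 2.0 for Hbb-y and 1.27 for Hbb-bs. The KO samples varied more than the WT samples. In WT the coefficient of variation over 4 samples was between 8.63% (Hbb-bh1) and 12.6% (Hba-x) for the 6 genes other than Hbb-bt, and was 52.1% for Hbb-bt. In KO it ran from 29.0% (Hbb-bs) to 80.4% (Hbb-bt).

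Other globin genes of both clusters were also looked at. Hbq1b, which encodes theta globin and lies between Hba-a1 and Hba-a2, had expected counts of 21.00, 35.39, 25.00 and 23.00 in WT and 284.41, 80.48, 149.04 and 166.00 in KO. It was low, yet without overlap. Of its 60-base windows 36.6% also lie in Hbq1a, so its counts share the uncertainty of the adult-type pairs, and its log2 fold change was 2.80 (SE 0.41, adjusted p = 0.0037, edgeR). Hbb-bh0, annotated as a pseudogene between Hbb-y and Hbb-bh1, had counts of 3, 26, 27 and 30 in WT and of 20, 134, 138 and 30 in KO. These groups overlapped, with KO_1 below 3 of the WT samples, and the difference of 1.91 (SE 0.66) did not pass (adjusted p = 0.105, edgeR). It passed without KO_1 (2.22, adjusted p = 0.0199) and with DESeq2 (adjusted p = 0.0283). Hbq1a and Hbb-bh2 did not pass the filter on low counts, with no more than 12 counts in any sample. Among globins of other tissues, the muscle gene Mb had a log2 difference of 0.48 (SE 0.28, adjusted p = 0.321, edgeR), and Cygb and Ngb did not pass the filter.

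To compare the genes with each other, CPM were divided by transcript length in kilobases. In WT the level per length was 3915 ± 381 (SD, n = 4) for Hbb-y, 2611 ± 225 for Hbb-bh1 and 2581 ± 326 for Hba-x. It was 1353 ± 124 for Hba-a1 and 1225 ± 133 for Hba-a2, and then fell to 59.0 ± 7.39 for Hbb-bs and 55.5 ± 28.9 for Hbb-bt. Hbb-y lay above all other globins in each WT sample, whereas Hbb-bh1 and Hba-x, Hba-a1 and Hba-a2, and Hbb-bs and Hbb-bt overlapped in their ranges. In KO the order by mean was Hbb-y (21348 ± 12220), Hba-x (16702 ± 6690), Hbb-bh1 (14743 ± 6842), Hba-a2 (8341 ± 3166), Hba-a1 (7745 ± 4151), Hbb-bt (255 ± 205) and Hbb-bs (167 ± 48.3), all CPM per kilobase. The KO samples differed so much in amount that neighbours in this order overlapped, except Hba-a1 and Hbb-bt. Within each of the 8 samples, however, Hbb-y was the highest and every embryonic gene lay above both adult alpha genes.

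Against this change in amount, the make-up of the globin RNA differed little. The embryonic genes made up 77.11%, 76.87%, 77.57% and 77.20% of globin RNA per length in WT_1 to WT_4, and 76.83%, 75.93%, 75.21% and 76.16% in KO_1 to KO_4. The means were 77.2% ± 0.29 and 76.0% ± 0.667 (SD, n = 4), a difference of -1.16 percentage points. The groups did not overlap by a margin of hundredths of a point, between KO_1 and WT_2, and did overlap without scaling for length (78.76% in KO_1, 78.74% in WT_2), with the full GENCODE lengths and with the minor globins included. Without KO_1 the difference was -1.42 points. The adult-type share came almost wholly from the alpha genes, so the pooled embryonic share also moves with the balance of alpha to beta RNA. Within each family the mean embryonic share was not lower in KO. It was 49.96% of alpha-type RNA in WT and 51.23% in KO. Of beta-type RNA it was 98.28% in WT and 98.84% in KO, and in both families the groups overlapped.

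Within the beta-type RNA, Hbb-bt and Hbb-bs together made up 2.11%, 2.02%, 1.16% and 1.60% in WT and 1.25%, 1.40%, 0.857% and 1.15% in KO. The mean share was 1.72% ± 0.435 in WT and 1.16% ± 0.229 in KO, and the groups overlapped. The split of the embryonic beta RNA between Hbb-y and Hbb-bh1 was also within the spread. Hbb-y was 58.92% ± 1.997 of the beta-type RNA in WT and 57.59% ± 2.309 in KO. Hba-x was 50.0% ± 1.33 of the alpha-type RNA in WT and 51.2% ± 1.71 in KO, also with overlap.

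**Figure D2:**
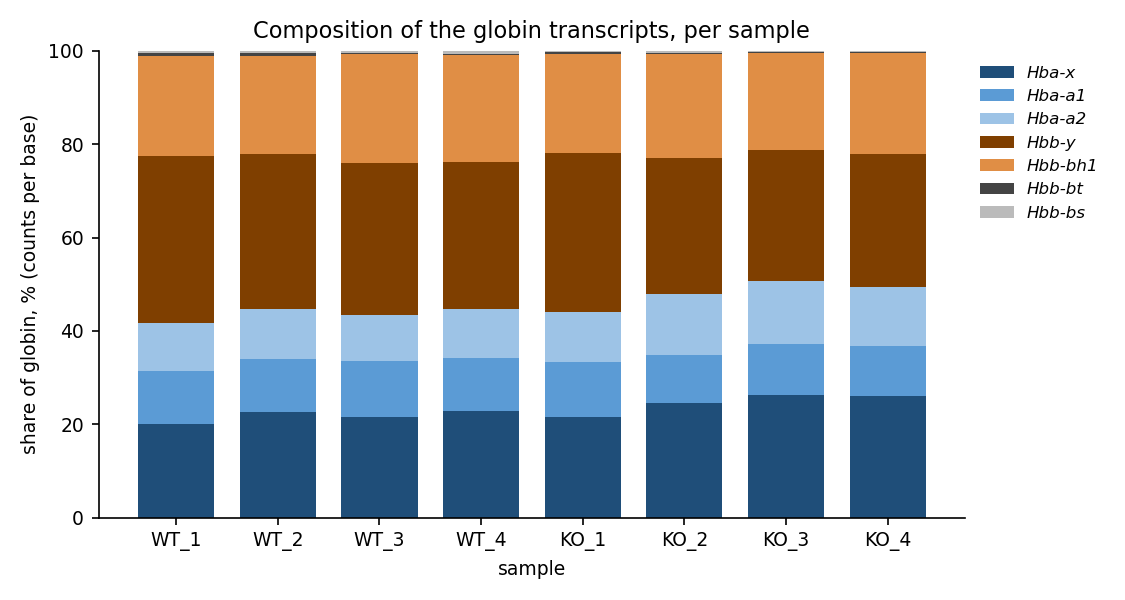
Share of each gene in the globin RNA of each sample, in percent of counts per base of transcript, stacked to 100 with the alpha-type genes in blue and the beta-type genes in brown, orange and grey. The alpha-type part is larger in KO_2, KO_3 and KO_4 than in the WT samples and in KO_1, and Hbb-bt and Hbb-bs form a thin layer at the top throughout.

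The balance of alpha to beta globin RNA per length was 0.716, 0.810, 0.768 and 0.811 in WT_1 to WT_4, and 0.785, 0.917, 1.03 and 0.977 in KO_1 to KO_4. KO_2, KO_3 and KO_4 lay above all WT samples, and KO_1, the sample with the most globin, lay within the WT range. The mean ratio was 0.776 ± 0.0446 in WT and 0.926 ± 0.104 in KO (SD, n = 4), so the groups overlapped. The difference of 0.150 became 0.197 without KO_1 and 0.141 without length scaling. The absolute ratio depends on the lengths used, and with the full GENCODE lengths it ran from 0.594 to 0.853 over the 8 samples.

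Ratios between pairs of genes or gene sums were compared by exact permutation of the sample labels (two-sided, 70 relabellings), which cannot give a p below 0.0286, with adjustment over the 5 ratios computed. After that adjustment a single ratio at this smallest p could not pass. The ratio of Hba-x to Hbb-bh1, which are embryonic genes of the alpha and the beta cluster without shared reads, was 0.940, 1.08, 0.9275 and 0.9999 in WT and 1.02, 1.101, 1.26 and 1.22 in KO. It was above the highest WT value in 3 of 4 KO samples, KO_1 being the exception, and the log2 difference, 0.22, did not pass (adjusted p = 0.286 from an exact permutation p of 0.0571). Without KO_1 the difference was 0.275. Hbb-y to Hbb-bh1 was 1.67, 1.57, 1.39 and 1.38 in WT and 1.62, 1.31, 1.35 and 1.33 in KO. Here the WT samples themselves fell into a higher and a lower pair, KO_1 lay with the higher pair, and the log2 difference came to -0.10 (exact permutation p = 0.229, adjusted p = 0.464), with -0.17 without KO_1 and -0.0486 without WT_1.

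The adult alpha genes together stood to Hba-x at 1.08, 0.969, 1.005 and 0.959 in WT and at 1.05, 0.953, 0.927 and 0.889 in KO. The log2 difference was -0.07, with overlap (exact permutation p = 0.286, adjusted p = 0.464), and it ran from -0.0376 without WT_1 to -0.1181 without KO_1, with -0.0404 without KO_4. Hbb-bt to Hbb-bs varied more than any other of these ratios, from 0.507 to 1.46 in WT and from 0.711 to 2.29 in KO, or 0.57 more in KO on the log2 scale (adjusted p = 0.464, exact permutation p = 0.371) and 0.28 more without KO_1, 0.323 without WT_4 and 0.3746 without WT_3. Mouse strains differ in their adult beta genes, and whether these embryos carry the Hbb-bt and Hbb-bs of the annotation is not known here, so the levels of each and their ratio hold only for reads as assigned to that annotation. Hbb-bt to Hbb-y, adult against embryonic beta, gave a log2 difference, KO less WT, equal to -0.24 (p = 0.6 before and after adjustment, exact permutation). It was -0.0128 without WT_1, -0.0274 without KO_3, -0.0609 without WT_2, -0.3773 without KO_1, -0.3841 without WT_4 and -0.5093 without WT_3. With Hbb-bs added to Hbb-bt the difference was -0.52 (exact permutation p = 0.114, adjusted p = 0.229 over the 4 ratios left when each near-identical pair is summed). The counts of Hba-a1 to Hba-a2 stood at 1.08, 1.02, 1.18 and 1.06 in WT and at 1.09, 0.767, 0.798 and 0.827 in KO. KO_1 was again within the WT range and the other KO samples were below it. The split of reads between these near-identical copies is uncertain, and this ratio was not tested.

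**Figure D3:**
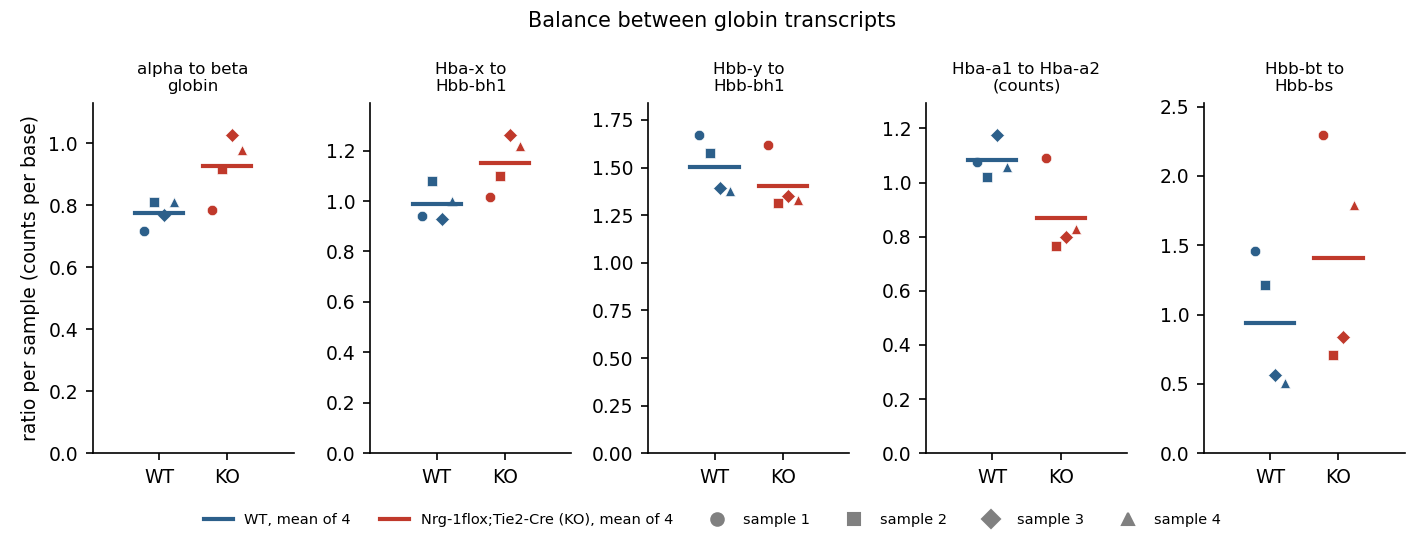
Ratios between globin transcripts in each sample (blue WT, red KO, axes from 0), per base of transcript except for the Hba-a1 to Hba-a2 panel, which uses counts, with bars at the mean of 4 samples and marker shapes for the sample number. KO_1 (circle) lies within the WT range for alpha to beta, Hba-x to Hbb-bh1, Hbb-y to Hbb-bh1 and Hba-a1 to Hba-a2, and above all WT samples for Hbb-bt to Hbb-bs.

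The globins were then set beside genes that red cells use with them. Of 42 tested genes in 4 lists (regulators, heme and iron, enzymes, membrane), 40 were called higher in KO, where 5.11% of all genes were called higher, and their median log2 fold change was 1.61. All 13 genes of heme synthesis and iron uptake rose, among them Alas2, the first enzyme of heme synthesis in red cells (2.44, SE 0.29, adjusted p = 0.00185), the mitochondrial iron carrier gene Slc25a37 (2.06, SE 0.25, adjusted p = 0.0019), Cpox (1.74, SE 0.29, adjusted p = 0.00603) and the transferrin receptor gene Tfrc (0.75, SE 0.11, adjusted p = 0.00332), all by edgeR. All 13 red cell membrane genes rose, with the anion exchanger gene Slc4a1 at 2.43 (SE 0.25, adjusted p = 0.00152) and the spectrin gene Sptb at 1.80 (SE 0.22, adjusted p = 0.0021). The glucose carrier gene Slc2a1 rose by 0.54 (SE 0.10, adjusted p = 0.0133; 0.0548 without WT_1 and 0.052 without WT_4) and Epb41, for protein 4.1, by 0.88 (SE 0.13, adjusted p = 0.0043). Of 9 erythroid regulators 8 rose, Lmo2 (0.25, adjusted p = 0.343, or 0.0482 without KO_2) not passing, and those that rose included Epor, the erythropoietin receptor gene (2.26, SE 0.21, adjusted p = 0.00119), Tal1 (1.64, SE 0.22, adjusted p = 0.00303), Zfpm1 (1.01, SE 0.14, adjusted p = 0.00282) and Ldb1 (0.55, SE 0.07, adjusted p = 0.00224). In the enzyme list 6 of 7 tested genes rose, with the carbonic anhydrase gene Car2 at 2.12 (SE 0.31, adjusted p = 0.00369), Prdx2 at 0.90 (SE 0.11, adjusted p = 0.00185) and Glrx5 at 0.79 (SE 0.13, adjusted p = 0.00589), while the catalase gene Cat had a difference of 0.20 (adjusted p = 0.266).

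Genes known to act in globin switching were read in the same way. Of 8 tested, 1 was called higher, where 5.11% of all genes were, and the median log2 difference was 0.05. Among the 4 most abundant, Zbtb7a, known as a repressor of fetal globin, rose by 0.46 (SE 0.11, adjusted p = 0.0297, edgeR). Its call was lost with the replicate number as a block and without KO_3, KO_4, WT_1, WT_3 or WT_4 (adjusted p from 0.0771 to 0.0974). Lin28b had a difference of -0.08 (adjusted p = 0.601), Nr2c2 of -0.02 (adjusted p = 0.886) and Hbs1l of 0.08 (adjusted p = 0.47) in the same test. Of 5 tested neighbours of the alpha cluster, 3 were called higher, where 5.11% of all genes were. Rhbdf1 rose by 0.53 (SE 0.08, adjusted p = 0.00359), Snrnp25 by 0.66 (SE 0.14, adjusted p = 0.0187) and Mpg by 0.45 (SE 0.10, adjusted p = 0.0279), whereas Nprl3 had a difference of 0.08 (adjusted p = 0.701) and Polr3k of -0.13 (adjusted p = 0.208), all by edgeR. The Snrnp25 call was lost without WT_1, WT_3 or WT_4 (adjusted p from 0.0548 to 0.0687), and the Mpg call with the block and without any 1 sample other than KO_1 and KO_2 (0.0623 to 0.0835).

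**Figure D4:**
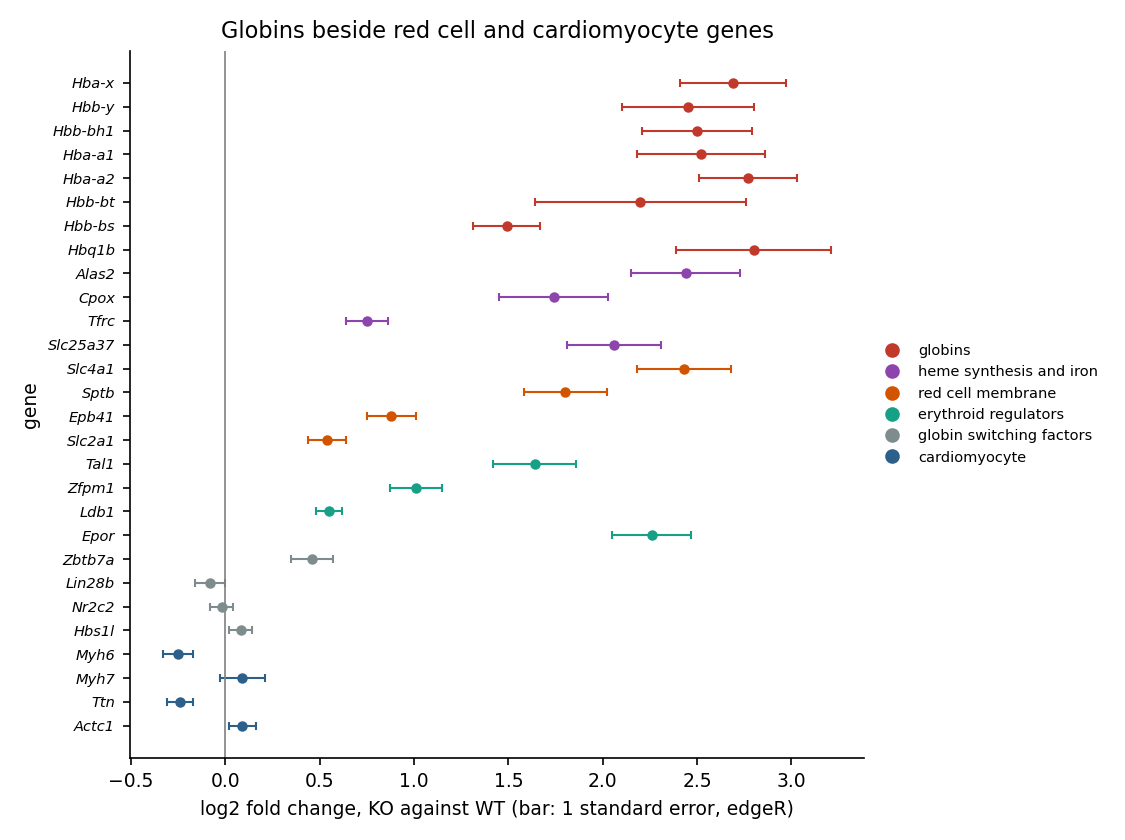
Log2 fold change, KO against WT, with 1 standard error on each side (edgeR, n = 4 per group), for the 7 globins and Hbq1b and for the 4 most abundant genes of 5 lists. The globins lie between 1.49 and 2.80, beside Alas2, Slc4a1 and Epor, and the switching factors and cardiomyocyte genes lie between -0.25 and 0.46.

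The level of globin relative to red cell transcripts was followed in each sample. Summed globin was 6577, 7870, 7211 and 6511 CPM in WT_1 to WT_4, and 67093, 19225, 38878 and 39898 CPM in KO_1 to KO_4, with a KO mean 5.86 times the WT mean. Divided by the CPM of Alas2, it was 110, 111, 101 and 116 in WT and 124, 114, 113 and 112 in KO. The groups overlapped, with means of 109 ± 6.04 and 116 ± 5.58 (SD, n = 4). Divided by Slc4a1 it was 42.7 ± 2.28 in WT and 44.98 ± 6.181 in KO, also with overlap. Both reference genes were chosen after their values were seen.

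Against the whole lists the ratio was less even. Summed globin over the summed CPM of the 4 red cell lists was 1.74 ± 0.106 in WT and 4.07 ± 0.924 in KO, without overlap. By list, it was 22.9 ± 1.24 in WT and 56.4 ± 18.5 in KO for the regulators, 6.21 ± 0.401 and 12.4 ± 2.13 for heme and iron, 9.30 ± 0.779 and 25.7 ± 6.32 for the enzymes, and 3.80 ± 0.219 and 9.29 ± 2.32 for the membrane genes, none of them with overlap. The summed level of the lists was 2.39 times higher in KO, with means of 4052 CPM in WT and 9702 CPM in KO. Such sums weigh abundant genes most. Slc2a1, the most abundant gene of these lists, had a mean of 1192 CPM in WT and 1736 CPM in KO. The part of this weighting in the ratios was not tested.

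Markers of other cells were read in the same samples. The summed level of 8 platelet genes was 35.1 to 53.8 CPM in WT and 59.6 to 185 CPM in KO, highest in KO_1. All 8 had a positive fold change, and 6 had every KO sample above every WT sample, where 9.52% of all genes did. In edgeR 7 had an unadjusted p under 0.05, where 3607 of 14451 genes did. After adjustment 2 of the 8 were called higher, where 5.11% of all genes were. These were Itga2b (1.15, SE 0.31, adjusted p = 0.0478) and Gp9 (1.57, SE 0.39, adjusted p = 0.0357), while Pf4 (1.34, adjusted p = 0.137), Gp1ba (0.81, adjusted p = 0.0679) and Ppbp (1.31, adjusted p = 0.307) did not pass in edgeR's test. The calls of Itga2b and Gp9 were lost with limma-voom, with the block and without any 1 sample other than KO_1 and KO_2, at adjusted p from 0.0587 to 0.139 for Itga2b and from 0.0574 to 0.113 for Gp9. Without KO_1 the log2 difference was 0.69 for Itga2b, 1.15 for Gp9, 0.48 for Pf4 and -0.12 for Ppbp. Gp1ba passed without KO_1 (0.0395), without KO_2 (0.0459) and with DESeq2 (adjusted p = 0.0276). Of 8 leukocyte genes, 3 passed the filter and 1, Csf1r, was called higher (1.08, SE 0.18, adjusted p = 0.00657), with Cd68 at 0.37 (adjusted p = 0.539) and Lyz2 at -0.31 (adjusted p = 0.304), and the summed level was 17.4 to 23.5 CPM in WT and 19.1 to 25.6 CPM in KO. Its defining marker Ptprc had between 3 and 14 counts.

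Of 6 blood progenitor genes 0 were called by edgeR (2, Runx1 and Spi1, at an unadjusted p under 0.05), 0 by limma-voom and 1 by DESeq2. Over all genes, edgeR called 8.62%, limma-voom 1199 of 14451 and DESeq2 1780 of 13876. An unadjusted p under 0.05 in edgeR was reached by 3607 of 14451 genes. The summed level of the progenitor genes was 92.6 to 103 CPM in WT and 88.2 to 123 CPM in KO. In edgeR, Kit was at 0.19 (adjusted p = 0.805), Hhex at 0.31 (adjusted p = 0.582), Cd34 at -0.10 (adjusted p = 0.571) and Gata2 at -0.22 (adjusted p = 0.246). Kit and Hhex changed sign without KO_1. Without KO_2, Runx1 (adjusted p = 0.0247) and Spi1 (0.0352) passed in edgeR. On all 8 samples Runx1 passed in edgeR with no filter (1.52, adjusted p = 0.0247) and among genes with no sample under 10 counts (1.53, adjusted p = 0.0496), and it was the DESeq2 call (0.00832). Of 6 genes of yolk sac and liver, the transferrin gene Trf alone passed the filter (1.08, adjusted p = 0.148, edgeR), Alb had at most 4 counts and Afp ranged from 0 to 63 counts. Cardiomyocyte genes gave 0 calls among 12 by edgeR (2, Myh6 and Ttn, at an unadjusted p under 0.05), 0 by limma-voom and 2 by DESeq2. The shares over all genes are those given for the progenitor genes, and counts over so few genes cannot be told from them. In edgeR, Myh6 was at -0.25 (adjusted p = 0.0796), Ttn at -0.24 (adjusted p = 0.0679), Myh7 at 0.09 (adjusted p = 0.694) and Actc1 at 0.09 (adjusted p = 0.496). Without KO_1, Actc1 (0.16, adjusted p = 0.00794) and Ttn (-0.23, adjusted p = 0.0491) passed in edgeR, and without KO_2 Myh6 did (-0.32, adjusted p = 0.0124). On all 8 samples Ttn passed in edgeR with total counts (-0.32, adjusted p = 0.0341), and the DESeq2 calls were Myh6 (0.032) and Ttn (0.0264). Of 8 endocardial and endothelial genes, 5 had an unadjusted p under 0.05 in edgeR, where 3607 of 14451 genes did. After adjustment 1 was called lower, where 3.5% of all genes were. It was Tek, which encodes the receptor Tie2 (-0.34, SE 0.08, adjusted p = 0.031, edgeR), a call lost with the block and without any 1 sample other than KO_1 and KO_2 (0.0553 to 0.107). Their summed level was 816 to 898 CPM in WT and 703 to 774 CPM in KO, without overlap, and Kdr (-0.38, adjusted p = 0.068), Npr3 (-0.31, adjusted p = 0.13), Cdh5 (-0.14, adjusted p = 0.169) and Tie1 (-0.04, adjusted p = 0.705) did not pass in edgeR. Kdr passed without KO_1 (-0.51, adjusted p = 0.00162), with DESeq2 (0.021), with total counts (0.0246) and with no filter (0.0384), and Npr3 passed without KO_2 (-0.40, adjusted p = 0.0343). The part of these other cells in the globin values was not tested.

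**Figure D5:**
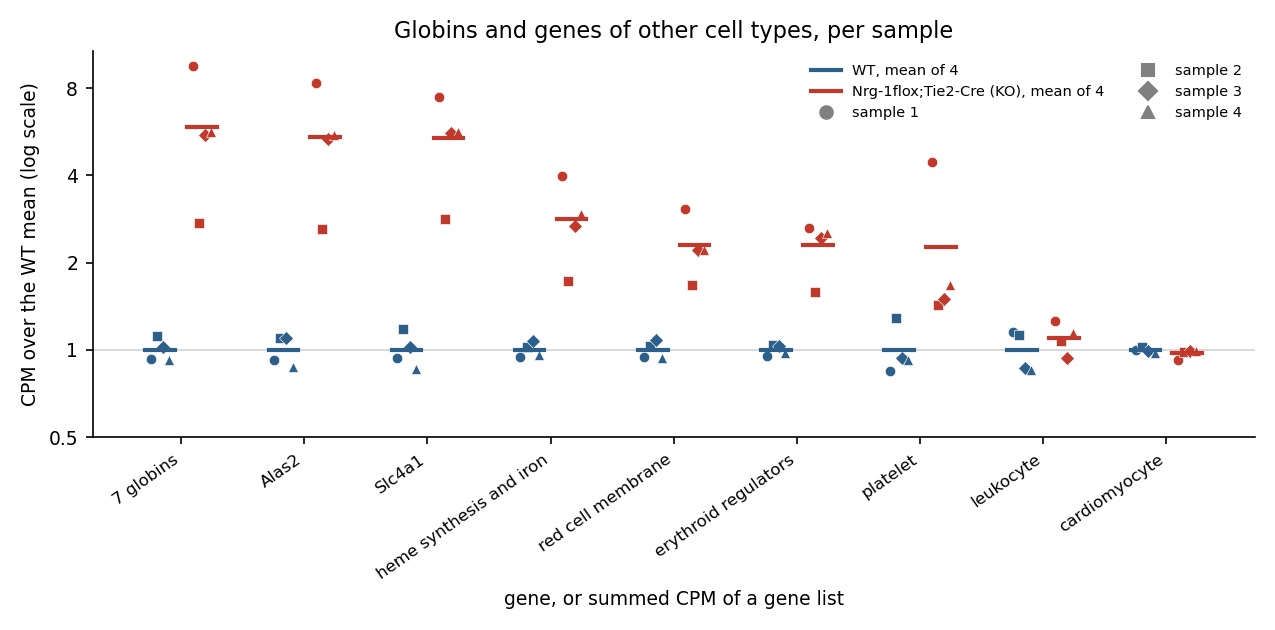
Level over the WT mean (log axis) in each sample, for the summed CPM of the 7 globins, for Alas2 and Slc4a1, and for the summed CPM of 6 gene lists, with WT in blue, KO in red and bars at the mean of 4 samples. The 7 globins reach from 2.73 in KO_2 to 9.53 in KO_1, Alas2 from 2.61 to 8.35 in the same samples, and the cardiomyocyte list stays between 0.925 and 1.03 in all 8.

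Genes whose pattern was most like the embryonic globins were ranked by the correlation, over the 8 samples after the mean of each genotype was taken away, with the mean of Hba-x, Hbb-y and Hbb-bh1, among 11093 genes with a mean of at least 5 CPM. These are descriptions across samples that share their libraries, and KO_1 and KO_2 carry most of the spread. The nearest was Hba-a1 (r = 0.998), and genes of the red cell lists stood close behind, among them Car2 (0.996), Urod (0.996) and Sptb (0.994). Outside the lists the nearest were Gpx1 (0.994), a glutathione peroxidase gene, 2700049A03Rik (0.990), the cathepsin E gene Ctse (0.990), the linker histone gene Hist1h1c (0.989), Hemgn (0.989), which encodes the blood cell nuclear protein hemogen, Trib3 (0.987), Ptp4a3 (0.987) and Anp32b (0.986). Several of these also differed between the genotypes by edgeR's test: Trib3 by 2.52 (SE 0.29, adjusted p = 0.0018), Ctse by 2.50 (SE 0.43, adjusted p = 0.00752), Hemgn by 2.49 (SE 0.30, adjusted p = 0.00185), Ptp4a3 by 1.40 (SE 0.18, adjusted p = 0.00274), Gpx1 by 1.07 (SE 0.18, adjusted p = 0.00743) and Anp32b by 0.46 (SE 0.11, adjusted p = 0.0361). The Anp32b call was lost with the block and without any 1 sample other than KO_1 and KO_2 (0.0728 to 0.108). Hist1h1c (0.0023, adjusted p = 0.996, edgeR) and 2700049A03Rik (0.09, adjusted p = 0.63) correlated with the globins over the centred samples while their means differed little between the genotypes. Since the globins spread mostly among the KO samples, these correlations say little about the WT samples.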

How the data were processed

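The authors deposited expected counts per gene from RSEM 1.3.1, after cutadapt, on GRCm38, per the submitters' processing notes. They hold no scaling for depth or length. RSEM divides reads that match several genes among them, and the aligner and the use of strand are not given in the sources used here. Libraries were made with a poly-A kit and counts have no molecular identifiers. Gene identifiers were given symbols through a table of names (53274 of 53465).

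Expected counts were rounded, filtered with filterByExpr by genotype (14451 genes) and tested in edgeR 4.0.16 (R 4.3.3) with TMM factors, genotype as the only term, the quasi-likelihood test and Benjamini-Hochberg adjustment over all genes at 0.05. SE is the fold change over the square root of F. CPM use TMM factors. Shares and ratios used counts over the length of the coding GENCODE M21 transcript within the RefSeq gene bounds, and exact permutation tests used scipy 1.17.1. Values are mean ± SD over samples.

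The genes, the 12 lists (106 genes) and the tests were chosen with earlier results of these data known. Text names the 7 globins, the minor globins, the 4 most abundant tested genes of each list with members called against its direction, and the 8 unlisted genes most like the embryonic globins. For 1 listed gene there was no match and it was not analysed here. Another listed gene enters the list counts and is not reported here by itself. Replicate pairs differed beyond counting noise (chi-square over degrees of freedom at least 3.76), so none was merged. On counts simulated for this design (14451 genes), the test recovered 82 of 98 genes changed by 1 on the log2 scale. Of 102 genes changed by 2 it recovered 96, and there were 10 false calls. The simulation gave both genotypes the same dispersion per gene. In the data, the chi-square over degrees of freedom reached 52.8 between KO samples and 6.17 between WT samples. These recovery figures may therefore not hold for the real comparison. Other settings tried were upper-quartile and total-count scaling, DESeq2 1.42.0, limma 3.58.1 with voom weights, factors without globins, other filters, summed copies, no length scaling, minor globins included, a replicate block and each sample left out. Full GENCODE lengths were added after seeing the data.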

Additional observations from a re-analysis of the deposited data

Results flagged for a closer look

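In 36 groups of 4 samples examined for a value far from the other three, 2 were found, where chance gives about 1 in 20 groups, or 1.8. In KO, the Hbb-bs level of KO_1 (149.8 CPM) stood apart from the other KO samples (86.5 to 94.4 CPM), with a gap of 0.875 of the group's range beyond Dixon's 95% critical value. The ratio of Hbb-y to Hbb-bh1 in KO_1 (1.62) stood apart from the other KO samples (1.31 to 1.35), with a gap of 0.877 of the range. Both lie in the sample with the most globin RNA.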

How the results depend on the processing

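Fold changes of Hba-x, Hba-a1, Hba-a2, Hbb-y, Hbb-bh1 and Hbb-bs kept their direction and passed under every alternative run and without each sample in turn, and Hbb-bt lost its call with limma-voom and in 5 of 8 fits without 1 sample. The number of genes called in all was 616 with a replicate block in place of 1245, and 509 (without WT_1) to 2523 (without KO_1) with 1 sample left out. The labels state no pairing by sample number. Deviations of same-numbered samples were nearly uncorrelated (0.0105, -0.0911, -0.0038 and 0.0187), which does not show whether they share a litter or a batch. The block ended no globin call, and 39 of the 42 red cell genes were called with it. Some other genes changed sign. Hist1h1c (0.0023) was at -0.0334 with limma-voom, -0.017 with upper-quartile factors, -0.0785 with total counts, -0.0006 with no filter and -0.0208 with the block. Kit (0.19) was at -0.0554 with limma-voom and -0.0112 with the block. With 1 sample left out, the Hist1h1c log2 fold change ranged from -0.1506 to 0.1334, Kit from -0.38 to 0.42, Hhex from -0.11 to 0.47, Myh7 from -0.022 to 0.19, Nr2c2 from -0.049 to 0.0089 and Ppbp from -0.12 to 1.75. The embryonic share, the alpha to beta ratio and the pair ratios kept their direction in all alternatives run. The cause of these changes was not tested. Depth limits the minor globins most, with counts of 0 to 284 per sample, and the split of near-identical copies rests on estimated counts.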
